A study of Mus musculus with 10 samples.

Results

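Among the epithelial cells of the mouse lower incisor bud at stage E14.5 (embryonic day), 299 cells carried the transcript *1500009L16Rik* and lacked *Krt15* and *Meis2*. They were selected on the measured UMI counts of these 3 genes, among 6091 cells of that stage in which 700 or more genes were found and mitochondrial genes held no more than 20% of the UMIs (unique molecular identifiers, each a captured RNA molecule). An epithelial gate asked for a UMI of at least 3 of the 9 genes *Epcam*, *Krt5*, *Krt14*, *Krt17*, *Dsp*, *Dsc3*, *Dsg2*, *Sfn* and *Trp63* and of at most 1 of *Pdgfra*, *Prrx1* and *Twist1*, and 852 cells passed it. Those with at least 2 UMIs of *1500009L16Rik* and 0 UMIs of both *Krt15* and *Meis2* are called 1500009L16Rik cells here. They made up 35.1% of the gate (95% interval 31.9 to 38.4). The 272 gate cells at 0 UMIs of all 3 genes are the reference cells, and 62 gate cells with at least 2 UMIs of *Krt15* or of *Meis2* and none of *1500009L16Rik* are the Krt15 or Meis2 cells.

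The study profiled single cells of wild type NMRI mouse embryos, from whole mandibles at E11.5 and, for the later stages E14.5 and E16.5, from buds of the lower incisor, over 22619 barcodes in all, of which 17175 passed the same filter. No group carried a mutation or a treatment. By the labels E16.5 has 2 samples and each earlier stage 4, but a stage was deposited as 1 matrix whose cells cannot be assigned to samples, so each stage is 1 sample. No test was therefore made, all intervals are 95% intervals for counting error only, and a gene is called higher or lower when its level differed at least 1.5-fold after 10 CPM (UMIs scaled to 1e6 per group) were added to both sides.

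Tooth shape is set by signals that pass between epithelium and mesenchyme and from the enamel knot, a cluster of non-dividing epithelial cells that secretes FGF, Shh, Wnt and BMP ligands. Epithelial cells that receive FGF switch on the ETS factors *Etv1*, *Etv4* and *Etv5* and feedback inhibitors such as *Dusp6*. In the incisor the epithelium folds into cervical loops, which later house *Sox2*-expressing stem cells and keep the tooth growing. Retinoic acid, a vitamin A derivative, is bound in the cell by *Crabp1* and *Crabp2* and broken down by the Cyp26 enzymes.

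*1500009L16Rik* (ENSMUSG00000087651) is a protein-coding gene on the plus strand at chr10:83722865-83762762 (GRCm38), for which RefSeq lists the synonym OCC-1. The cells were chosen by the *1500009L16Rik* count, so its level is a description: 2520 UMIs in 299 cells, from 2 to 85 in a cell, with a median of 5 and quartiles at 3 and 9. UMIs of the gene were also found outside the gate. A *1500009L16Rik* UMI was found in 29.0% of 2334 mesenchymal cells (99.3 CPM; cells with 2 or more of the 3 mesenchymal genes and at most 1 of the epithelial ones) and in 12% of 100 immune cells (19.8 CPM; cells with 3 or more immune genes and at most 1 epithelial and 1 mesenchymal gene), against 851 CPM in the 1500009L16Rik cells. At 2000 UMIs per cell the shares were 13.7% of the mesenchymal cells (12.3 to 15.2) and 5.26% of the immune cells (1.73 to 11.9). How many of the UMIs in either cell type came from free RNA in the droplets was not tested, so these shares are not read as expression.

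The promoters shown are that of the gene that defines the cells and that of *Cyp26a1*, one of the genes furthest above the reference. Both run from 250 bases before to 50 bases after the RefSeq start on GRCm38.p6, on the plus strand, at chr10:83722615-83722914 and chr19:37697558-37697857. Capitals mark the only match, on the reverse strand, to the retinoic acid receptor direct repeat AGTTCA with 5 bases between its copies, which begins 32 bases before the start of *Cyp26a1*.
1500009L16Rik: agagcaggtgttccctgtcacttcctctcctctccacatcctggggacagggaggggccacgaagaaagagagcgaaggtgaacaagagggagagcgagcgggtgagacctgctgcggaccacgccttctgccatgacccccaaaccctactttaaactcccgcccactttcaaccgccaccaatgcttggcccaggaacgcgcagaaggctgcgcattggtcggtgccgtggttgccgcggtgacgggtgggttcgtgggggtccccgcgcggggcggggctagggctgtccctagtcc
Cyp26a1: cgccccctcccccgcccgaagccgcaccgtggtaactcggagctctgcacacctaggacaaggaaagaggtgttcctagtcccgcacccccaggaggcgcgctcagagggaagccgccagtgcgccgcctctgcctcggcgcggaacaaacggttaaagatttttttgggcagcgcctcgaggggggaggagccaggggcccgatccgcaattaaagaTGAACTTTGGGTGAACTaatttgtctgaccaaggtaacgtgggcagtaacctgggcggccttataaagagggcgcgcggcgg
Searched on both strands, this repeat was present in 8 of 32817 promoters of this length (0.0244%). It was in 1 of the 233 promoters matched to genes higher in the 1500009L16Rik cells and in 1 of the 5547 matched to all ranked genes. The printed *Cyp26a1* promoter holds such a match, and shares that rest on 1 promoter are not compared. The ETS core CCGGAAG, searched in the same way, was in neither of the promoters printed and in none of the windows of *Etv5*, *Etv1*, *Dusp6*, *Crabp1* or *Shisa2*. It was in 39 of the 233 promoters (16.7%), 24.2% of the 5547 matched to all ranked genes and 8.86% of all 32817. A match is a description of these letters and not of binding.

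The name tooth bud epithelium was checked against 12 dental epithelium genes. *Tbx1*, a T-box factor of the dental epithelium, was at 84.4 CPM in the 1500009L16Rik cells (74.3 to 95.5) and 77.5 in the reference cells (62.9 to 94.5), against 1.66 in mesenchymal and 7.07 in immune cells. A *Tbx1* UMI was present in 42.1% of the 1500009L16Rik cells and 22.4% of the reference cells, or 15.6% and 12.6% after each cell was thinned to 2000 UMIs, against 0.686% of the mesenchymal and 4% of the immune cells. *Isl1*, a LIM homeobox factor of the incisor epithelium, was at 5.43 CPM in mesenchymal and 4.24 in immune cells, far below both epithelial groups. Both groups therefore carried these dental markers. *Krt4* and *Krt13*, keratins of the oral lining, were at 0 UMIs in both groups, but also in the Krt15 or Meis2 cells and in both groups at E16.5, so they do not tell tooth from oral epithelium here. Within the list *Isl1* (323 against 152 CPM), *Sostdc1* (542 against 350) and *Sp6* (41.2 against 22.1) were higher, *Irx1*, *Irx2* and *Shh* were lower, and 5 others were within 1.5-fold, against 4.48% higher and 4.09% lower of the 6970 genes compared across the genome in the same way. The *Sp6* log2 ratio of 0.67 turned to -1.15 in cells with a UMI of a Y-linked gene and to -0.12 when cells were thinned to 2000 UMIs before the rule was applied. *Irx2* was at -0.05 in cells thinned after the rule, *Irx1* at -0.58 in cells with *Xist* and no Y-linked UMI, and *Sostdc1* at 0.54 in the same cells, all under 1.5-fold.

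The 1500009L16Rik cells were more deeply sequenced. Their median depth was 6922 UMIs and 2386 genes, with a range of 1369 to 64820 UMIs, and that of the reference cells was 3674.5 UMIs and 1481.5 genes, with a range of 1280 to 28491. The Krt15 or Meis2 cells had a median of 5197.5 UMIs. Because depth differed between the groups, ratios were also computed from cells thinned to 2000 UMIs and from 161 pairs of cells matched in depth within 20%. The median share of mitochondrial UMIs was 2.51% in the 1500009L16Rik cells and 2.78% in the reference cells. Of the members 16.1% had a UMI of a Y-linked gene and 62.2% one of *Xist*, against 9.56% and 61.4% of the reference cells. Of the 8192 E14.5 barcodes, 13 also occurred at E11.5 and 16 at E16.5, and 1 belonged to the 1500009L16Rik cells.

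Of 6970 genes ranked (50 or more UMIs over both groups, found in 10% or more of the cells of one of them, and leaving out the genes used by the rule and the gate), 312 were higher in the 1500009L16Rik cells than in the reference cells, 4.48% of those ranked, and 285 were lower, 4.09%. At least 2-fold higher were 52 (0.746%) and at least 2-fold lower 71 (1.02%). At 1.5-fold without the limits on UMIs and cells 391 were higher and 596 lower, and with ratios centred on the median 254 and 331. In cells thinned after the rule 229 were higher and 144 lower, so the balance moved with the setting. The median log2 ratio of all ranked genes was 0.04, and 90% of them lay between -0.54 and 0.56. *Etv5*, *Scx* and *Shisa2* had the largest ratios, and *Shh*, *Igfbp5* and the embryonic globins *Hba-x* and *Hbb-y* were among the 12 smallest. Of 77 followed genes past 1.5-fold, 38 stayed past it under all 17 alternatives, 7 fell below it only with 50 CPM added in place of 10, and 32 fell below it under another alternative.

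**Figure D1:**
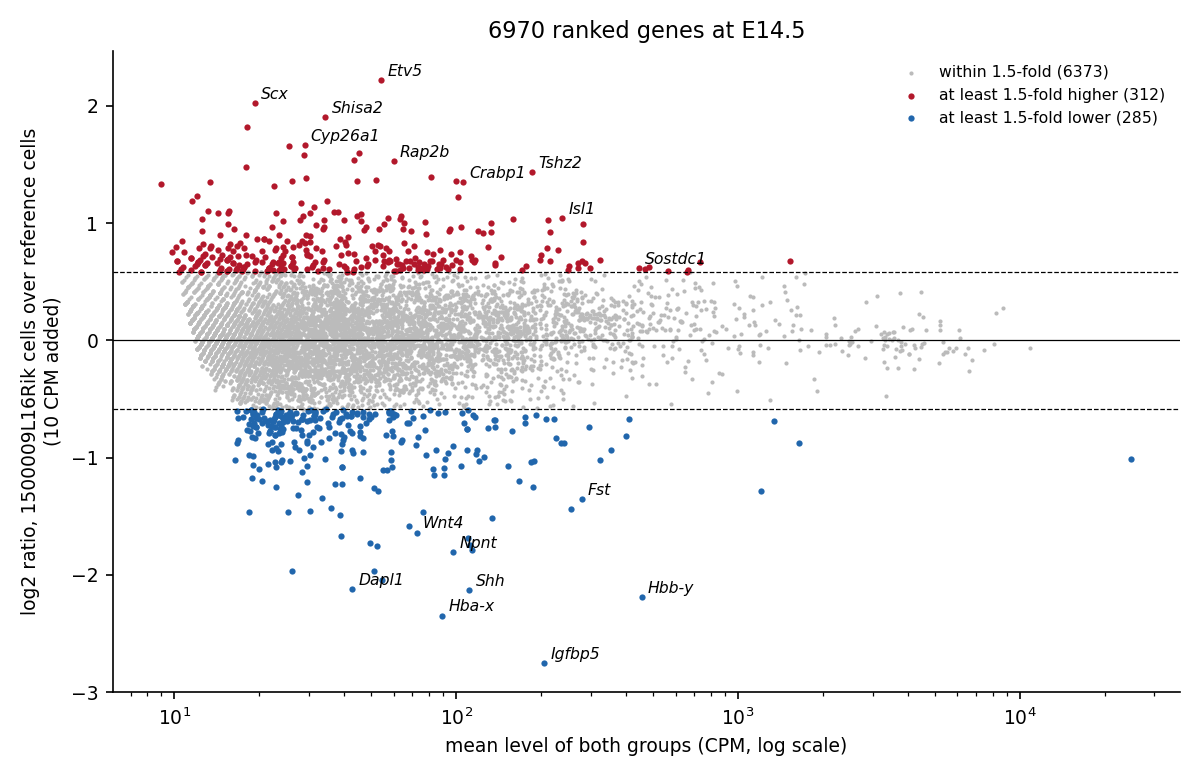
Log2 ratio of 1500009L16Rik cells over reference cells at E14.5 (10 CPM added) against the mean level of both groups (CPM, log axis) for 6970 ranked genes. Red points are the 312 genes at least 1.5-fold higher and blue points the 285 at least 1.5-fold lower, with *Etv5* at 2.22 and *Igfbp5* at -2.75 as the extremes.

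FGF response. Summed over 10 genes, the level was 686 CPM in the 1500009L16Rik cells and 300.5 in the reference cells, a log2 ratio of 1.16 (1.01 to 1.32). Of the 9 ranked, 5 were higher and none was lower, against 4.48% of all ranked genes higher, and the median log2 ratio of the 9 was 0.80 against 0.04 for all. *Etv4* was one of the markers given for these cells from earlier results, and so is not independent of their choice. The sum, count and median include it, and the others higher were *Etv1*, *Etv5*, *Dusp6* and *Il17rd*.

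*Etv5*, an ETS factor induced by FGF, had the largest ratio of all ranked genes, which leave out those of the rule and gate. *Etv5* was at 95.5 CPM in the 1500009L16Rik cells (84.7 to 107), 12.7 in the reference cells (7.23 to 20.5) and 6.25 in the Krt15 or Meis2 cells (1.29 to 18.3), a log2 ratio of 2.22 over the reference (1.76 to 2.64). A UMI of *Etv5* was in 44.1% of the 1500009L16Rik cells and 5.15% of the reference cells, or 18.3% and 2.10% at 2000 UMIs. In mesenchymal cells, where *Etv5* is also used, it was at 29.7 CPM (11.4% of cells, median depth 4115 UMIs), and in immune cells at 12.7 CPM (8%, median depth 6538.5 UMIs). The reference cells were thus at the immune level for *Etv5*, and the 1500009L16Rik cells were above every one of these groups.

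Its relatives followed the same order. *Etv4* was at 79.0 CPM in the 1500009L16Rik cells (69.2 to 89.8), 24.5 in the reference cells (16.7 to 34.8) and 0 of 479909 UMIs in the Krt15 or Meis2 cells, where 3 UMIs would be 6.25 CPM. *Etv1* was at 122 (110 to 135), 40.3 (30.03 to 53.0) and 2.08 CPM (0.0528 to 11.6). For both genes the intervals of the 3 groups did not overlap between the 1500009L16Rik cells and either other group, with log2 ratios over the reference of 1.37 for *Etv4* and 1.39 for *Etv1*. *Dusp6*, a phosphatase that switches off ERK and so damps the pathway, was at 148 (134 to 162), 51.4 (39.7 to 65.5) and 12.5 CPM (4.59 to 27.2), a log2 ratio of 1.36 (1.04 to 1.69). *Il17rd*, a membrane antagonist of FGF signalling, was at 33.4 and 15.03 CPM (0.80, 0.32 to 1.25).

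The remaining feedback genes were closer to the reference level. Log2 ratios were 0.17 for *Spry1*, 0.28 for *Spry2*, 0.41 for *Spred1* and 0.47 for *Spred2*, inhibitors of the Ras to ERK step, all within 1.5-fold, and *Spry4* had too few UMIs to be ranked (2.70 and 4.75 CPM). *Spred1* and *Spred2* lay inside the interval of *Il17rd*, and whether the genes of the list differ from each other was not tested. The ratios of the ETS factors and of *Dusp6* were as large with depth matched: 2.38 for *Etv5*, 1.57 for *Etv4*, 1.75 for *Etv1* and 1.76 for *Dusp6*. Over all alternatives *Etv5* ran from 1.22 to 2.82, *Etv4* from 0.79 to 1.77, *Etv1* from 0.60 to 1.75 and *Dusp6* from 0.76 to 1.76, with *Etv1* and *Dusp6* lowest in cells with a Y-linked UMI and the other two with 50 CPM added. With each cell at 2000 UMIs, 43.6% of 289 1500009L16Rik cells and 80.3% of 238 reference cells had no UMI of any of *Etv1*, *Etv4*, *Etv5* and *Dusp6*, while 15.6% and 2.52% had exactly 2 of the 4.

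FGF receptors and ligands. *Fgfr1* was higher, at 160 CPM against 79.1 (log2 ratio 0.93, 0.65 to 1.22), and was at 41.7 CPM in the Krt15 or Meis2 cells. *Fgfr2*, the receptor whose epithelial form reads mesenchymal FGFs, was at 43.2 and 55.4 CPM (-0.30, -0.65 to 0.07), and *Fgfr3* at 1.01 and 1.58 CPM. The summed level of the ligands was lower, mostly through *Fgf9*, *Fgf4* and *Fgf15*. The 9 ligands of the list summed to 12.8 CPM in the 1500009L16Rik cells and 123 in the reference cells, a log2 ratio of -2.55 (-2.88 to -2.20). *Fgf9*, the only one ranked, was at 8.78 CPM (5.73 to 12.9) against 41.9 (31.4 to 54.8), a log2 ratio of -1.47. *Fgf4*, an enamel knot ligand, was at 1.35 CPM, from 4 UMIs in 2 cells, against 43.5 CPM, from 55 UMIs in 20 cells. *Fgf15* had 0 UMIs in the 1500009L16Rik cells, against 29 UMIs in 14 reference cells (22.9 CPM), and *Fgf20* 2 UMIs against 9. *Fgf3*, *Fgf8*, *Fgf10*, *Fgf17* and *Fgf18* were not ranked, with log2 ratios from -0.31 to -0.02. The summed FGF response level was thus higher, and the summed ligand level lower, in the 1500009L16Rik cells. Of the 9 ranked response genes 4 were within 1.5-fold.

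**Figure D2:**
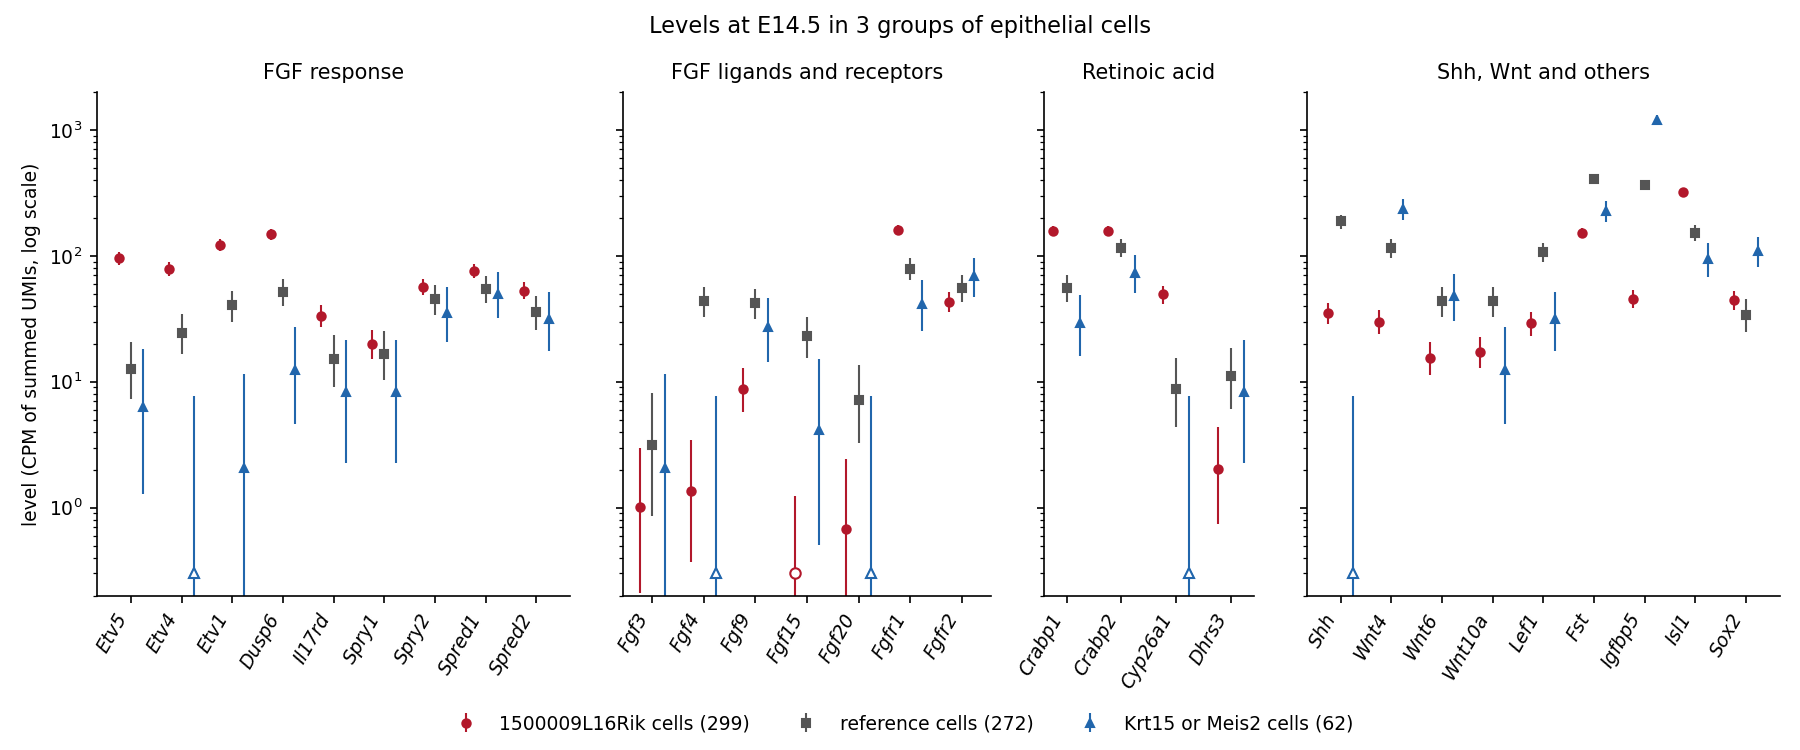
Level (CPM of summed UMIs, log axis) at E14.5 of named genes in the 299 1500009L16Rik cells (red circles), 272 reference cells (grey squares) and 62 Krt15 or Meis2 cells (blue triangles). Bars are 95% counting intervals and open symbols are genes with 0 UMIs, drawn at the foot of the axis; *Etv5*, *Etv4*, *Etv1* and *Dusp6* are highest in the red group, and *Fgf4*, *Fgf9* and *Fgf15* are lower in the red than in the grey group.

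Enamel knot, Hedgehog and Wnt genes. The 16 enamel knot genes summed to 237 CPM in the 1500009L16Rik cells and 713 in the reference cells (log2 ratio -1.55, -1.69 to -1.41). Of the 7 ranked none was higher and 5 were lower (*Shh*, *Fgf9*, *Wnt10a*, *Msx2* and *Lef1*), against 4.09% of all ranked genes, with *Msx2* (-0.73) at -0.40 when 1 UMI of *1500009L16Rik* was enough. *Shh*, the hedgehog ligand of the enamel knot, was at 35.1 CPM (28.7 to 42.5) against 187 (164 to 213), a log2 ratio of -2.13 (-2.41 to -1.85), and had no UMI in the Krt15 or Meis2 cells. In the reference cells all *Shh* came from 51 of 272 cells, at 894 CPM among themselves, and in the 1500009L16Rik cells from 34 of 299, at 207 CPM. *Ptch1* and *Gli1*, targets of Shh, were within 1.5-fold, at log2 ratios of -0.55 and -0.37.

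Of 8 Wnt ligands 4 were ranked, none was higher and 3 were lower, against 4.09% of all ranked genes: *Wnt4* (30.05 against 115 CPM, -1.64), *Wnt6* (15.5 against 43.5, -1.07) and *Wnt10a* (17.2 against 43.5, -0.97). The *Wnt10a* ratio turned to 0.0524 when cells were thinned before the rule. *Wnt4* is a ligand also found in suprabasal epithelium, and it was at 233 CPM in the Krt15 or Meis2 cells. Among 14 Wnt response genes and receptors, 8 were ranked, and *Lef1*, a nuclear effector of Wnt (29.0 against 107 CPM, -1.58), and *Axin2*, its negative feedback gene (18.2 against 41.1, -0.86), were the 2 lower, with *Axin2* at -0.28 in cells thinned after the rule. *Wif1*, a secreted Wnt inhibitor, was lower as well (15.2 against 94.1 CPM, -2.05), while *Trabd2b*, which encodes a protease that inactivates Wnt proteins, was among the 12 genes furthest above the reference (33.8 against 2.37 CPM, 1.82). The other 6 response genes and receptors were within 1.5-fold.

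Of 15 BMP genes 11 were ranked, 2 higher and 1 lower, against 4.48% and 4.09% of all ranked genes. *Bmpr1a*, a BMP receptor, was at 114 against 70.4 CPM (0.63) and *Sostdc1*, a secreted BMP and Wnt antagonist, at 542 against 350 (0.62). *Bmpr1a* was at 0.21 when cells were thinned before the rule, and *Sostdc1* at 0.54 in cells with *Xist* and no Y-linked UMI. *Fst*, follistatin, which binds activin and BMPs, was lower (152 against 405 CPM, -1.35). Of the ligands, *Bmp4* (-1.59, -2.00 to -1.14) and *Bmp2* (-1.38, -1.80 to -0.92) were not ranked, and *Bmp7* was within 1.5-fold (0.13). Among 11 Notch genes *Notch2* (27.0 against 49.8 CPM, -0.69) and the target *Hes1* (163 against 307, -0.87) were lower, 2 of the 5 ranked against 4.09% of all, and none was higher. *Notch2* was at -0.25 with depth matched and at 0 when cells were thinned before the rule. Of 8 ectodysplasin pathway genes *Nfkbia* (-1.03) and *Tnfrsf19* (-0.85) were lower, 2 of the 3 ranked against the same 4.09%, and none was higher; *Edar*, the receptor, had 1.35 and 6.33 CPM.

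Retinoic acid. *Crabp1*, a given marker and so not independent of the choice, was at 157 CPM in the 1500009L16Rik cells (143 to 172), 55.4 in the reference cells (43.2 to 69.9) and 29.2 in the Krt15 or Meis2 cells (15.9 to 48.9), a log2 ratio of 1.35 over the reference (1.03 to 1.67). *Crabp1* was higher still in mesenchymal cells, at 307 CPM and in 65.0% of cells. *Cyp26a1*, whose promoter is printed above, was at 49.3 CPM (41.6 to 58.0), 8.70 (4.34 to 15.6) and 0 of 479909 UMIs in the same order, a log2 ratio of 1.66 (1.17 to 2.10). *Cyp26a1* was close to absent from mesenchyme, at 0.0921 CPM, or 1 of 2334 cells. Of the 6 genes ranked from a list of 15, these 2 were higher, against 4.48% of all ranked genes, and none was lower; without the given marker, *Cyp26a1* was the only one higher. *Crabp2*, the other carrier of retinoic acid, was within 1.5-fold (0.42). *Cyp26b1* was at 0.675 and 1.58 CPM.

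Other genes furthest above the reference. *Scx*, a bHLH factor known from tendon, was at 37.1 CPM in the 1500009L16Rik cells (30.5 to 44.8) and 1.58 in the reference cells (2 UMIs), a log2 ratio of 2.03, and was at 2.30 CPM in mesenchymal cells. *Shisa2*, which holds immature FGF and Wnt receptors inside the cell, was at 60.1 against 8.70 CPM (1.91). *Meis1*, a homeobox gene and paralogue of the *Meis2* that the rule held at 0, was at 72.9 against 17.4 CPM (1.60) and at 39.6 in the Krt15 or Meis2 cells. *Tshz2*, a zinc finger factor, was the most abundant of the group, at 275 against 95.7 CPM (1.43). *Tgfb1*, a growth factor, was at 69.6 against 17.4 CPM (1.54), *Creb3l1*, a membrane-bound transcription factor, at 48.3 against 9.49 (1.58), and *Rap2b*, a small GTPase, at 93.9 against 26.1 (1.52). *Anxa3*, an annexin (1.65), and *Endod1*, which carries an endonuclease domain (1.48), complete the 12 largest ratios. Each of the 12 came from at least 57 of the 299 cells, and the 5 cells with most UMIs held at most 30% of the UMIs of a gene.

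Genes furthest below. *Igfbp5*, a binding protein of insulin-like growth factors, had the lowest ratio of all ranked genes, at 45.6 CPM (38.2 to 53.9) against 365 (332 to 399), a log2 ratio of -2.75. *Igfbp5* was at 1200.2 CPM in the Krt15 or Meis2 cells. Besides *Shh*, *Wif1* and the collagen, decorin and globin genes given elsewhere, the rest of the 12 lowest were *Dapl1* (9.79 against 75.9 CPM, -2.12), *Nrxn3*, a neurexin (14.9 against 87.0, -1.96), *Dcx*, a microtubule protein known from neurons (4.73 against 47.5, -1.96), *Npnt*, a basement membrane ligand of integrins (37.8 against 157, -1.81), and *Ahnak*, a large scaffold protein (46.3 against 178, -1.74). In the Krt15 or Meis2 cells over the reference cells the log2 ratios of these 6 genes ran from 0.51 for *Ahnak*, within 1.5-fold, to 1.73 for *Dapl1*.

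The embryonic globins *Hba-x* (22.6 against 156 CPM, -2.35) and *Hbb-y* (157 against 754, -2.19) were also among the 12 lowest, but rested on few cells. In the reference cells 5 cells held 88.3% of the *Hba-x* UMIs and 78.4% of the *Hbb-y* UMIs, and 1 cell alone held 598 of 953 *Hbb-y* UMIs. Without the 10 members and 5 reference cells that had over 1% of their UMIs in 7 erythroid genes, the log2 ratios were -0.48 for *Hba-x* and -0.67 for *Hbb-y*, and in cells with a Y-linked UMI they were -0.52 and -0.17. The alternative without erythroid-rich cells was chosen after the data were seen.

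Markers of other cell types. The 12 mesenchyme genes, 3 of them used by the gate, summed over the other 9 to 254 CPM in the 1500009L16Rik cells and 638 in the reference cells. Of 6 ranked, *Col1a1* (-1.03), *Col1a2* (-1.79), *Col3a1* (-1.28) and *Dcn* (-1.75) were lower, against 4.09% of all ranked genes, with *Col3a1* at 0.0713 in cells with a Y-linked UMI and *Col1a1* at -0.41 under the stricter gate described at the end of the paragraph; *Vim* was the most abundant (116 against 166 CPM) and *Twist2* was at 0 in the 1500009L16Rik cells. The share of cells with 1 of the 3 mesenchymal gate genes was 10.4% and 9.93%. The 7 erythroid genes summed to 6208 against 9958 CPM, led by *Hbb-bs*, of whose UMIs 5 cells held 73.5% in the 1500009L16Rik cells and 93.4% in the reference cells. For *Hba-a1* the 5 cells held 72.2% and 91.4%, and in cells with a Y-linked UMI the ratios of *Hba-a1* (-0.88) and *Hba-a2* (-0.69) turned to 3.51 and 3.97. The 9 immune genes summed to 12.5 against 38.0 CPM (*Tyrobp* the most abundant, *C1qa*, *C1qb* and *C1qc* at 0) and the 8 endothelial genes to 15.5 against 28.5 CPM, led by *Egfl7*, with *Kdr*, *Emcn*, *Cldn5*, *Tie1* and *Esam* at 0. Glia and neural crest genes summed to 17.6 against 15.03 CPM, led by *Erbb3*, with *Sox10* and *Foxd3* at 0, and skeletal muscle genes to 0.675 against 1.58 CPM. Of 2 transcripts that move with RNA quality, the nuclear *Malat1* was at 16461 against 33173 CPM (-1.01) and *Gm42418*, which overlaps ribosomal RNA, at 697 against 1712 (-1.28). The part of these transcripts and cells in the other differences was not tested. With no mesenchymal gate gene and at least 4 of the 9 epithelial genes allowed in a cell, the FGF response ratio was 1.15.

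Cell cycle and state. The 10 proliferation genes summed to 2999 CPM in the 1500009L16Rik cells and 1915 in the reference cells (log2 ratio 0.64, 0.58 to 0.71). All 10 were ranked and 5 were higher, against 4.48% of all ranked genes: *Top2a*, a topoisomerase (679 against 448 CPM, 0.59), *Cdk1*, the mitotic kinase (166 against 83.0, 0.92), *Birc5* (0.64), *Ube2c*, a ubiquitin-conjugating enzyme of mitotic exit (379 against 185, 1.0), and *Pclaf* (0.61). With depth matched *Cdk1*, *Birc5* and *Pclaf* were at 0.57, 0.52 and 0.58, just under 1.5-fold, *Top2a* was at 0.41 in cells with *Xist* and no Y-linked UMI, and *Ube2c* was at 0.44 when cells were thinned before the rule. Of 14 S phase genes, all ranked, *Rrm2* (0.75) and *Tyms* (0.60) were higher, against the same 4.48%, and none was lower. *Tyms* was at -0.15 when cells were thinned before the rule. *Cdkn1c*, a cell cycle inhibitor, was lower (160 against 292 CPM, -0.83), and *Cdkn1a*, which marks the enamel knot, was within 1.5-fold (84.4 against 108). Cells with at least 3 of the 10 proliferation genes were 84.3% of the 1500009L16Rik cells and 48.9% of the reference cells, at unequal depth.

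Of 10 early response genes, all ranked, *Fos* (158 against 258 CPM, -0.67), *Fosb* (-0.74), *Junb* (-0.65) and *Atf3* (-1.02) were lower, against 4.09% of all ranked genes. Under alternatives *Fos* came to -0.34 (cells with *Xist* and no Y-linked UMI), *Fosb* to -0.12 (thinned before the rule) and *Junb* to -0.43 (1 UMI of *1500009L16Rik* or more), and of the 4 *Atf3* alone stayed past 1.5-fold throughout. These genes are known to rise on dissociation of tissue, and its part in these differences was not tested. At E16.5 none of the 10 differed 1.5-fold, against 1.1% higher and 1.17% lower of all genes ranked at that stage. Of 14 basement membrane genes 13 were ranked, 1 higher and 2 lower, against 4.48% and 4.09% of all: *Itga6*, a laminin-binding integrin, was higher (293 against 168 CPM, 0.77), while *Dst*, which ties hemidesmosomes to keratin (64.8 against 203, -1.51), and *Col17a1*, a hemidesmosome collagen (10.8 against 25.3, -0.76), were lower; *Col17a1* was at -0.45 with depth matched and *Itga6* at 0.58, just under 1.5-fold, when cells were thinned before the rule. Among the 9 ranked of 12 guidance genes *Sema3e* (46.9 against 11.9 CPM, 1.38) and *Efnb2* (73.3 against 33.2, 0.95) were higher and *Sema3c* (-0.67) and *Nrp2* (-0.62) lower, against the same shares of all genes. *Efnb2* was at 0.43 in cells thinned after the rule and *Nrp2* at -0.27 in cells thinned before it. Of 14 actomyosin genes only *Tpm1*, a tropomyosin, was past 1.5-fold among the 10 ranked (288 against 512 CPM, -0.81), and of 12 cadherin and junction genes only *Pkp1*, a desmosome protein, among 7 (-0.88), beside 4.09% lower of all, and *Tpm1* was at -0.52 in cells with a Y-linked UMI. *Krt18*, a keratin of simple epithelia, was higher (146 against 56.9 CPM, 1.22), but was at 0.34 in cells with a Y-linked UMI. Its list of 8 periderm and simple epithelium genes, 2 of them ranked, summed to 209 against 177 CPM (0.22, 0.0137 to 0.44). *Krt8*, with which *Krt18* pairs, had too few UMIs to be ranked (8.78 against 20.6 CPM, -0.70), as had *Krt7* (-1.09), *Cldn7* (-0.66) and *Krt19* (-0.35).

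**Figure D3:**
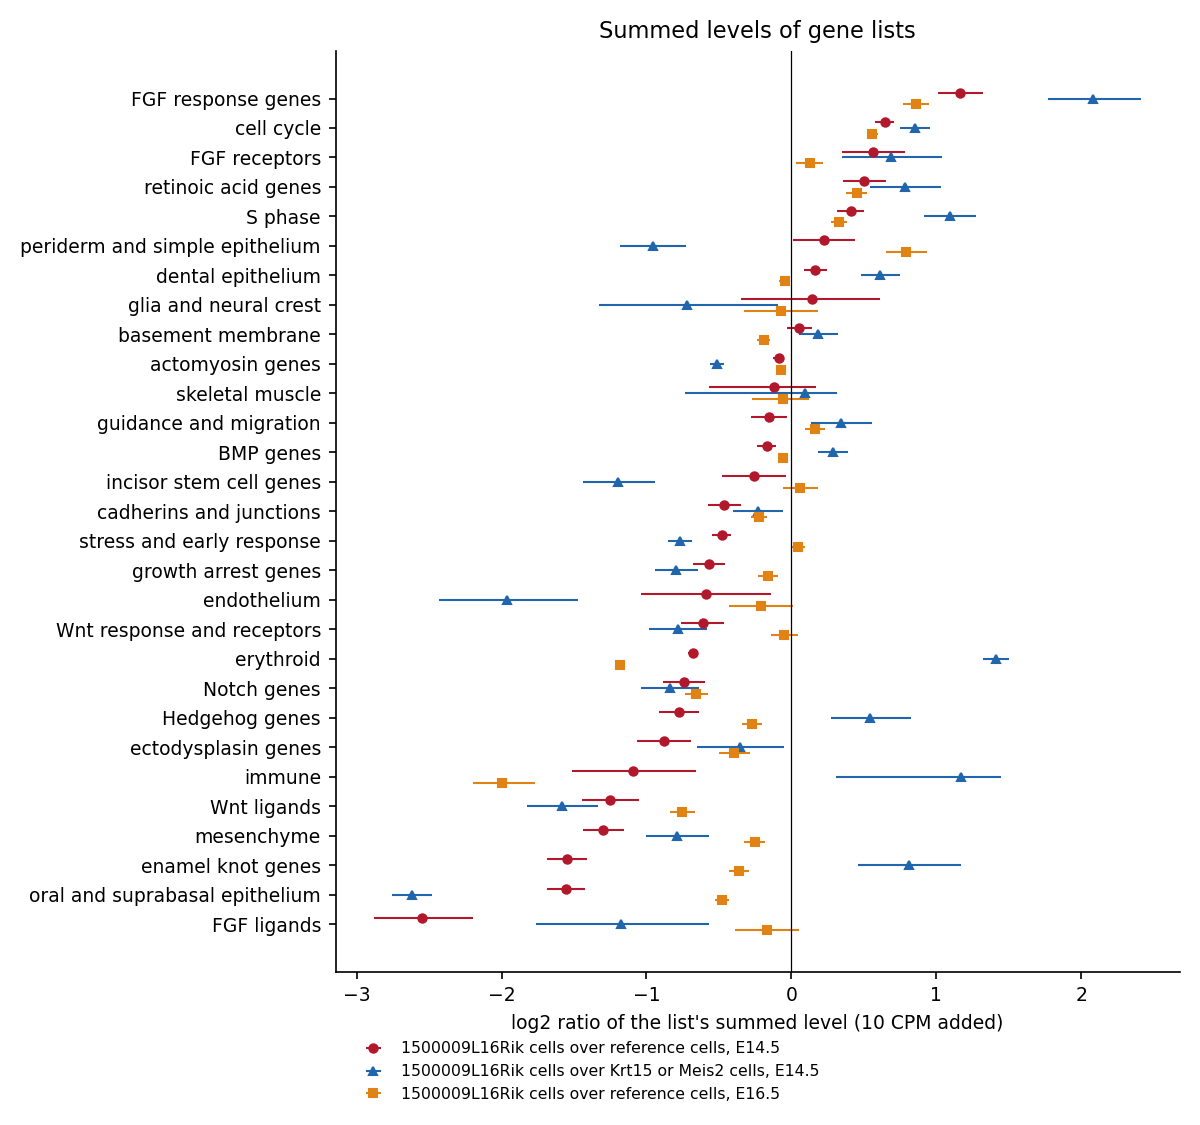
Log2 ratio of the summed level of each gene list, with 95% counting intervals, for 1500009L16Rik cells over reference cells at E14.5 (red circles), over Krt15 or Meis2 cells at E14.5 (blue triangles) and over reference cells at E16.5 (orange squares). FGF response genes are at 1.16, 2.08 and 0.86, and enamel knot genes at -1.55, 0.81 and -0.36.

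Stem cell genes. *Sox2* was at 44.6 CPM in the 1500009L16Rik cells (37.3 to 52.9), 34.0 in the reference cells (24.6 to 45.8) and 108 in the Krt15 or Meis2 cells (80.9 to 142). The log2 ratio of *Sox2* over the reference was 0.31 (-0.09 to 0.71), and it was -0.15 with depth matched. A *Sox2* UMI was in 25.4% and 12.9% of the 1500009L16Rik and reference cells but in 6.23% and 5.88% at 2000 UMIs, against 0.814% of mesenchymal cells and 0 of 100 immune cells, so no difference in *Sox2* was detectable at equal depth. None of the 5 ranked genes of the stem cell list differed 1.5-fold, against 4.48% higher and 4.09% lower of all ranked genes. Over the alternatives *Sox2* ran from -0.29 to 0.63 and *Lgr5* from -0.29 to 0.69, past 1.5-fold at the upper end of each. *Lgr5* was at 13.5 and 14.2 CPM, and *Sfrp5*, a secreted Wnt modulator, at 3.04 CPM against 0 of the reference UMIs.

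Against the Krt15 or Meis2 cells, the rule used *Krt15* and *Meis2* as well as *1500009L16Rik*. Of 6464 ranked genes 1150 were higher in the 1500009L16Rik cells (17.8%) and 402 lower (6.22%), with a median log2 ratio of 0.15. When ratios were centred on that median, 761 were higher and 674 lower, so the excess of higher genes moved with the scaling. Markers of other cell types moved with this comparison: the erythroid genes summed to 6208 against 2330 CPM (log2 ratio 1.41, 4 of 5 ranked higher), the mesenchyme genes to 254 against 446 (-0.79, 3 of 5 ranked lower) and the endothelial genes to 15.5 against 89.6 (-1.96), and their part in the other differences was not tested. Of the FGF response genes 7 of 9 ranked were higher, among them *Etv1* at 3.45, *Etv4* at 3.15, *Dusp6* at 2.81 and *Etv5* at 2.70. *Shh* (2.17) and *Cdkn1a* (1.27) were higher than in these cells although *Shh* was lower than in the reference cells. Of the S phase genes 12 of 14 were higher, and of the oral and suprabasal list *Igfbp5* (-4.44), *Wnt4* (-2.60) and *Krtdap* were lower. *Sox2* was lower too, by -1.12 (-1.53 to -0.69). The Krt15 or Meis2 cells number only 62, and *Etv5* there rested on 3 UMIs. *Etv4* and *Shh* had no UMI there, and *Etv1* was below *Etv5*. The ratios of these genes depend on the 10 CPM added, and their order is not read.

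The cells differed among themselves. Where the cells had more UMIs of *1500009L16Rik*, several genes that the rule did not use were higher, but the deeper cells also have more UMIs of the defining gene: the median depth was 5058 UMIs for cells with exactly 2, 5215 with 3 to 4, 7389 with 5 to 9 and 15542.5 with 10 or more. *Etv5* was at 42.3, 59.1, 98.4 and 119 CPM over these 4 classes and *Tshz2* at 139, 228, 244 and 348 CPM. *Dusp6* was at 120, 158, 131 and 164 CPM, an uneven order with overlapping intervals. *Shh* fell from 62.2 to 17.0 CPM and *Igfbp5* from 89.6 to 27.4 CPM between the first and the last class.

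On either side of the threshold, the 67 cells with exactly 2 UMIs and the 106 cells with exactly 1 differed in part. *Etv5* was at 42.3 CPM with 2 UMIs and 33.5 with 1, *Etv4* at 67.2 and 47.6, and *Crabp1* at 117 and 61.7. *Shh* was at 62.2 CPM with 2 UMIs and 270 with 1, above the 187 of cells with none. Over the reference cells, the cells with 1 UMI had 58 genes higher (1.3% of 4465 ranked) and 196 lower (4.39%), and *Etv1*, *Etv4* and *Spry2* were the FGF response genes past 1.5-fold.

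**Figure D4:**
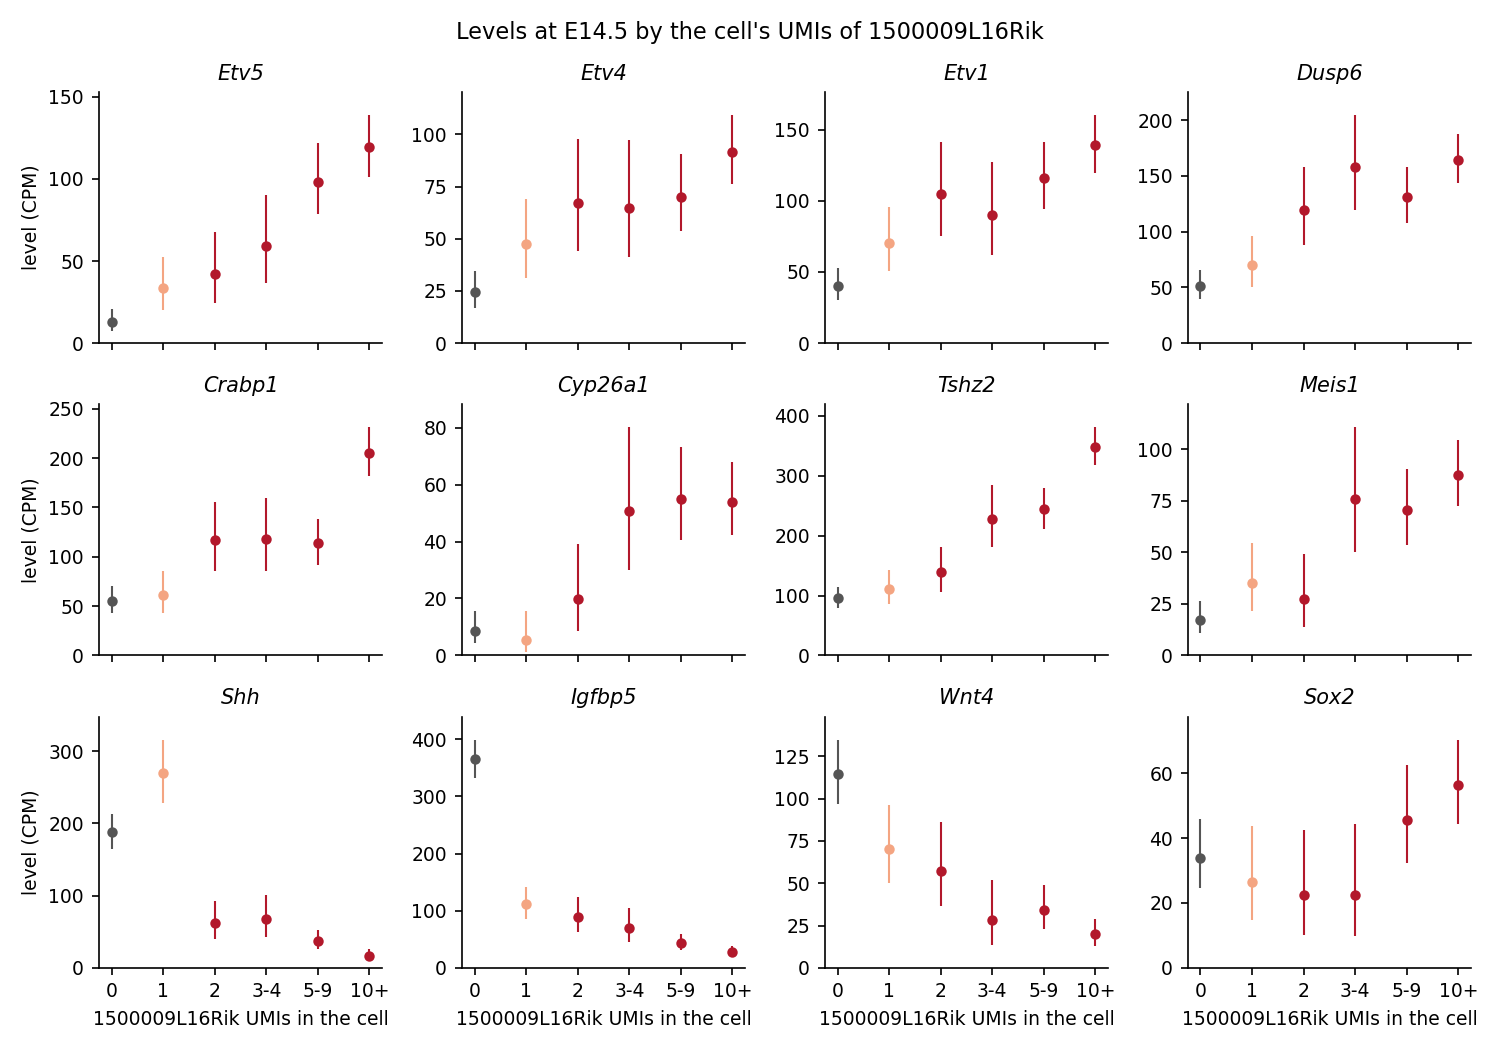
Level (CPM, linear axes from 0, 95% counting intervals) of 12 genes at E14.5 by the number of *1500009L16Rik* UMIs in the cell, with reference cells (0 UMIs, grey), cells just outside the rule (1 UMI, pale) and 1500009L16Rik cells (2 or more, red). *Etv5* runs from 12.7 CPM at 0 UMIs to 119 at 10 or more and *Igfbp5* from 365 to 27.4, while median depth runs from 3674.5 to 15542.5 UMIs.

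Cells with a *Shh* UMI were 34 of the 299 (11.4%, 8.0 to 15.5). Their *Etv5* level was 97.6 CPM and that of the other 265 was 95.1 CPM, and *Dusp6* was at 145 and 148 CPM. *Crabp1* differed, at 59.8 CPM (40.3 to 85.3) in the cells with *Shh* and 176 (160 to 194) in those without. The 76 cells with a *Sox2* UMI had *Crabp1* at 205 CPM (181 to 232), against 121 (105 to 139) in those without, and *Shh* at 13.6 against 50.7 CPM. *Etv5* was at 111 and 84.0 CPM, *Etv4* at 77.0 and 80.5 CPM and *Dusp6* at 148 CPM in both, in the cells with and without *Sox2*. The *Crabp1* intervals did not overlap on either split and those of *Dusp6* did. Cells with *Sox2* were deeper (median 11855 against 5912 UMIs), as were cells with *Shh* (9794 against 6742). Cells with *Shh* also had less *1500009L16Rik*, at 592 against 904 CPM.

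At E16.5, a stage that did not enter the choice at E14.5, the same rule took 423 of 1657 gate cells (25.5%, 23.4 to 27.7), with 725 reference cells, at median depths of 12208 and 5303 UMIs. At E11.5 no cell met the rule, and only 6 cells passed the gate, so the stage could not be compared. Of 8853 genes ranked at E16.5, 97 were higher in the 1500009L16Rik cells (1.1%) and 104 lower (1.17%). Stage and sample cannot be told apart.

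Of the 300 genes higher at E14.5 and ranked at both stages, 48 were higher at E16.5 (16% of these, and 55.2% of the 87 higher at E16.5), against 1.26% of all 6921 genes ranked at both. The sign was the same for 270 of the 300, or 90%, against 53.4% of all genes above 0 at E16.5. Of the 271 lower, 54 were lower again (19.9%, and 75% of the 72 lower at E16.5), against 1.04% of all. Both stages used 0 UMIs of the same gene to define the reference, and members were deeper than reference cells at both. Markers of other cells and of RNA quality also moved the same way at E16.5. The erythroid genes summed to 4873 against 11090 CPM (-1.18, all 4 ranked lower), the immune genes to 1.65 against 36.5 and the mesenchyme genes to 470 against 562 (-0.25), *Malat1* was at -0.75 and *Gm42418* at -1.65. The 54 genes lower at both stages include *Hba-a1*, *Hba-a2*, *Col1a2*, *Malat1* and *Gm42418*, and the part of these cells and transcripts in the other differences was not tested.

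The FGF response genes higher at both stages were *Etv5* (51.2 against 16.3 CPM at E16.5, log2 ratio 1.22), *Etv1* (120 against 37.4, 1.45), *Dusp6* (76.5 against 23.2, 1.38) and *Etv4* (42.1 against 24.7, 0.59). *Crabp1* had the largest ratio of the 8853 genes ranked at E16.5, which leave out those of the rule and gate, at 153 against 27.1 CPM (2.14), with *Sema3e* (1.56), *Krt18* (1.5), *Meis1* (1.17), *Tshz2* (1.12), *Creb3l1* (1.1), *Shisa2* and *Trabd2b* (0.98 each) also higher again. *Cyp26a1* (76.2 against 50.3 CPM, 0.52) and *Scx* (6.04 against 1.29, 0.51) were within 1.5-fold at E16.5. *Sox2*, for which no difference was detectable at equal depth at E14.5, was at 23.3 CPM in the 1500009L16Rik cells of E16.5 (19.96 to 27.1) and 4.08 in the reference cells (2.46 to 6.38), a log2 ratio of 1.24, and in 5.81% and 0.946% of cells at 2000 UMIs. *Sfrp5* was at 24.6 against 9.03 CPM (0.86).

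Of the genes below the reference at E14.5, *Shh*, *Igfbp5* and *Fgf9* were within 1.5-fold at E16.5. *Shh* was at 162 against 182 CPM (-0.16), *Igfbp5* at 539 against 756 (-0.48) and *Fgf9* at 30.5 against 34.2 (-0.13). *Fgf4* was at 0 and 0.645 CPM at E16.5, and *Fgf15* and *Fgf20* had no UMI in either group. *Wnt4* (-0.83), *Wnt6* (-0.64), *Wnt10a* (-0.61), *Notch2* (-0.98) and *Hes1* (-0.68) were lower at both stages. Whether the ratios of a gene differ between the stages was not tested.

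**Figure D5:**
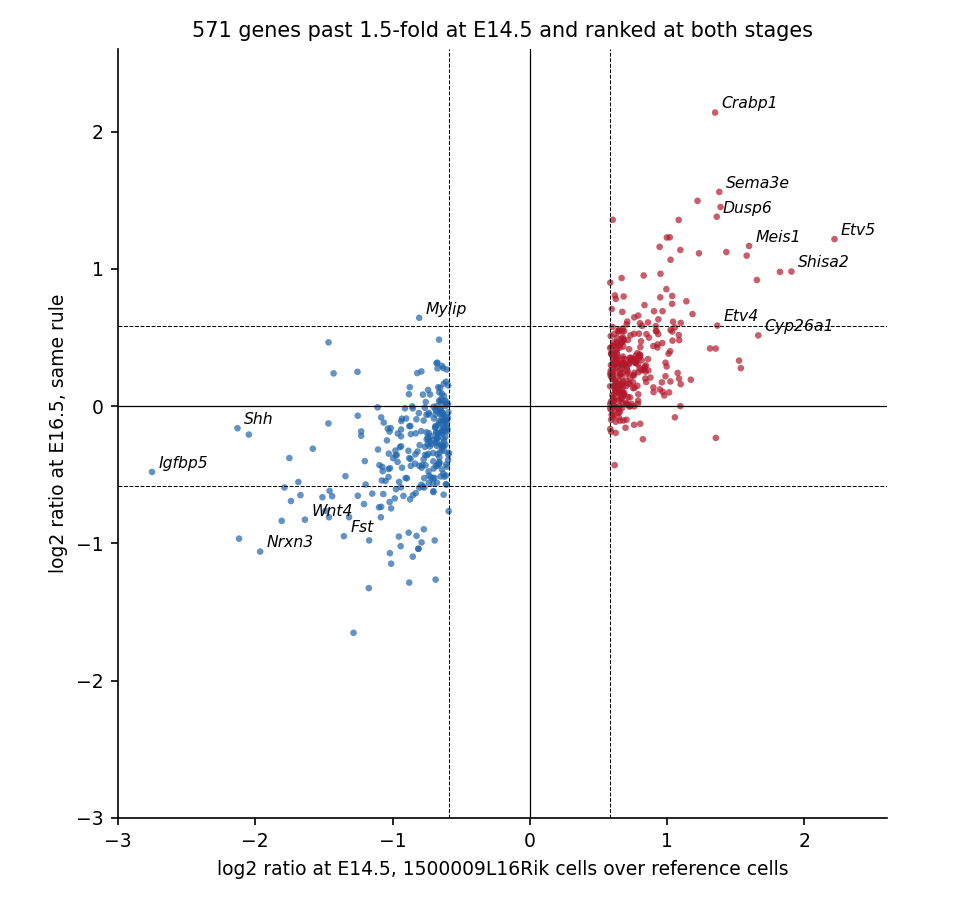
Log2 ratio of 1500009L16Rik cells over reference cells at E16.5 against that at E14.5 for the 571 genes past 1.5-fold at E14.5 and ranked at both stages (red higher, blue lower at E14.5; dashed lines mark 1.5-fold). Of the red points 270 of 300 lie above 0 at E16.5, and *Mylip* is the blue point above the upper dashed line.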

How the data were processed

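The authors made the deposited UMI counts with Cell Ranger 4.0.0 on mm10 from 10x Genomics 3' libraries, 1 matrix per stage over 32285 genes, not normalized. Deposited barcode and feature lists gave other labels (cells and gene names) and no measured values. Members, lists and named genes were chosen with earlier results of these data known. Levels are each group's pooled UMIs as CPM; log2 ratios add 10 CPM to both sides. Intervals (95%) are exact Poisson for levels, Clopper-Pearson for shares and combined limits for ratios, and cover counting error only. Total depth was 2961802 UMIs in 1500009L16Rik cells and 1264428 in reference cells. Where a gene had 0 UMIs, 3 UMIs are taken as the limit. Named were the genes of the rule, the given markers (*1500009L16Rik*, *Etv4*, *Crabp1*), the 12 largest and 12 smallest ratios among ranked genes outside the rule and, from each list, members past 1.5-fold and up to 8 of the most abundant others; *Malat1*, *Gm42418* and *Mylip* were named after their values were seen. Scrublet (scanpy 1.11.5) called 0 of 6091 cells doublets, its calls were not used, and an alternative without the top-scoring 5% was used in its place. Ranking and intervals were tested on simulated counts in which all cells of a group shared the same profile. The simulation held no other spread between cells or embryos, so it tests counting error only. Python 3.11.15, numpy 2.4.6, scipy 1.17.1 and pandas 2.3.3 were used. Gene positions are from GENCODE vM21 on GRCm38, another release than the authors counted on, and promoters from RefSeq on GRCm38.p6. Reads of overlapping genes and of close paralogues such as the globins cannot be told apart with certainty. Alternatives changed the cell filter, gate, threshold, depth, doublets, sex-linked UMIs, CPM added, low-count filter, centring and weight of cells. Results for some genes of the lists are not reported here.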

Additional observations from a re-analysis of the deposited data

Results flagged for a closer look

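*Mylip*, which encodes a ubiquitin ligase that degrades lipoprotein receptors, was the 1 gene past 1.5-fold in opposite directions at the 2 stages. Its log2 ratio of 1500009L16Rik cells over reference cells was -0.81 at E14.5 (19.2 against 41.1 CPM, 57 and 52 UMIs) and 0.64 at E16.5 (26.8 against 13.5 CPM, 195 and 63 UMIs). The difference between the stages was not tested.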

How the results depend on the processing

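No paired analysis was possible because each stage is 1 pooled matrix. The summed FGF response stayed above 0 under all 17 alternatives, between 1.07 and 1.31 except at 0.75 in cells with a Y-linked UMI; the proliferation sum moved from 0.64 to 0.58 with at least 1 UMI of *1500009L16Rik*, 0.49 when cells were thinned to 2000 UMIs before the rule and 0.86 in Y-linked cells. The rule took 95 cells when thinned first, 161 matched in depth, 48 with a Y-linked UMI and 177 with *Xist* and no Y-linked UMI. Genes higher than the reference (312) became 206 thinned before the rule, 634 with 1 CPM added, 52 with 50 CPM and 138 at 200 UMIs or more. Genes lower (285) became 144 thinned after the rule, 168 before it, 149 in Y-linked cells, 499 with 1 CPM, 71 with 50 CPM, 596 without a filter and 91 at 200 UMIs or more. Against the Krt15 or Meis2 cells, higher genes (1150) became 482 thinned after the rule, 173 before it, 741 matched in depth, 506 in Y-linked cells, 292 with 50 CPM, 439 at 200 UMIs or more and 761 centred on the median. Lower genes (402) became 136, 45, 252 and 140 under the first 4 of these, 614 with 1 CPM, 152 with 50 CPM, 990 without a filter, 99 at 200 UMIs or more and 674 centred. The matching paired 161 members with reference cells only. All 62 Krt15 or Meis2 cells were kept, so the 741 and 252 are not matched in depth to them. The 48 genes higher at both stages became 111 with 1 CPM, 12 with 50 CPM and 27 at 200 UMIs or more. Reversed in Y-linked cells were *Col3a1* (0.0713), *Hba-a1* (3.51), *Hba-a2* (3.97) and *Sp6* (-1.15). Reversed when thinned before the rule were *Hba-a1* (0.47), *Hba-a2* (0.70), *Sp6* (-0.12), *Tyms* (-0.15) and *Wnt10a* (0.0524), *Notch2* was at 0 there, and *Hba-a2* was at 0.0765 in cells of 1000 genes or more and no more than 10% mitochondrial UMIs. Of 77 genes followed past 1.5-fold, 70 stayed past it with depth matched, 67 thinned after the rule, 62 thinned before it, 65 with at least 1 UMI of *1500009L16Rik*, 65 in Y-linked cells, 67 in *Xist* cells, 48 with 50 CPM added and 72 to 77 under the other alternatives. Fewer cells or UMIs enter the thinned, matched and sex-split settings; other causes were not tested. With 1 sample a stage, spread between embryos is unknown.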

Other observations

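The 57 gate cells with at least 1 UMI of *1500009L16Rik* and at least 1 UMI of *Krt15* or *Meis2* were outside the rule and outside every comparison above. They were deep, at a median of 9744 UMIs, and had *1500009L16Rik* at 336 CPM. *Etv5* was at 50.8 CPM, *Dusp6* at 105 CPM and *Crabp1* at 99.6 CPM in them, between the 1500009L16Rik cells and the reference cells for each. *Sox2* was at 71.0 CPM and *Shh* at 101 CPM.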
